A study of Mus musculus with 7 samples.

Results

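The miR-26 family of the mouse was followed as 5 mature arms, mmu-miR-26a-5p, mmu-miR-26b-5p, mmu-miR-26a-1-3p, mmu-miR-26a-2-3p and mmu-miR-26b-3p, chosen by name from the 1966 mature miRNAs counted in each library. Small RNA was sequenced from hepatocytes that were freed from mouse liver with collagenase and enriched by slow centrifugation. One group is labelled with the genotype WT (3 libraries) and the other with ALAS12-KO (4 libraries), the study's name for hepatocytes mutant for ALAS1 and ALAS2, enzymes of the first step of heme synthesis. All 7 libraries carry the treatment label TMX, which is not spelled out. The labels give no age, strain, promoter or Cre, and do not say whether each library came from its own animal. The p-values therefore set group differences only against the scatter of these samples, and part of that scatter may be technical.

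As background, a miRNA hairpin is cut into a pair of arms. One arm, the guide, is kept in an Argonaute protein and directs it to messenger RNAs that match its seed, bases 2 to 8. The other arm, the passenger, is mostly degraded. The miR-26 hairpins lie in introns of the Ctdsp genes, which encode small phosphatases of the RNA polymerase II C-terminal domain. The guide strands are known in liver as restraints on the cell cycle, and miR-26a is also known there for effects on glucose and lipid metabolism.

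The mature sequences show why the family is read as 2 guides and 3 passengers (RefSeq, GRCm38.p6, 5′ to 3′, seed in capitals).
mmu-miR-26a-5p: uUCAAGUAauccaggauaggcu
mmu-miR-26b-5p: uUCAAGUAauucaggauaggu
mmu-miR-26a-1-3p: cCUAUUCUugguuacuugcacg
mmu-miR-26a-2-3p: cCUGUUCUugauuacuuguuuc
mmu-miR-26b-3p: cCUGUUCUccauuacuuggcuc
Both guides carry the seed UCAAGUA, which no other of the 1679 mature sequences in the table has. Of the 1966 counted miRNAs, 1675 are among these sequences, so the seeds of the others were not checked. The guides differ by the substitutions C11U and C21U (miR-26a-5p base first, position from its 5′ end), and miR-26b-5p is 1 base shorter, at 21 against 22 bases. The passengers miR-26a-2-3p and miR-26b-3p share the seed CUGUUCU with miR-6932-3p and miR-7039-3p, while miR-26a-1-3p has CUAUUCU. From miR-26a-2-3p to miR-26a-1-3p there are 6 substitutions, the first of them G4A inside the seed. How the counting handled reads that fit both guides is not given, and apart from the 3′ end the guides rest on the single base C11U, so their separate counts carry that uncertainty.

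The hairpins show which counts can be traced to a locus (same source, both mature arms in capitals).
Mir26a-1: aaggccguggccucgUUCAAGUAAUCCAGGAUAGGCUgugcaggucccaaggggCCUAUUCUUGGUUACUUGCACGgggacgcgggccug
Mir26a-2: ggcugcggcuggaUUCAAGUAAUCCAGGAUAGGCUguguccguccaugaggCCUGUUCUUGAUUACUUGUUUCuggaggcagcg
Mir26b: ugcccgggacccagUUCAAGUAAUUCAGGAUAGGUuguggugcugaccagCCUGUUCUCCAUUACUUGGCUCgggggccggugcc
Mir26a-1 is a plus-strand hairpin of chromosome 9 (119031796 to 119031885) in intron 5 of the principal transcript of Ctdspl (GENCODE M21, GRCm38). Mir26a-2 is a plus-strand hairpin of chromosome 10 (126995530 to 126995613) in intron 5 of Ctdsp2. Mir26b is a plus-strand hairpin of chromosome 1 (74394310 to 74394394) in intron 4 of Ctdsp1, the shortest of the 3 host introns at 564 bases against 1946 in Ctdsp2 and 3283 in Ctdspl. Each hairpin sits on its host's strand and overlaps no exon of the host's coding transcripts. The 5′ arms of Mir26a-1 and Mir26a-2 are identical, so miR-26a-5p sums both loci, and only the passengers tell them apart.

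The levels of the 5 arms fell into 2 tiers, abundant guides and rare passengers. Values below are CPM, counts scaled to a common total of miRNA reads in each library, unless TMM-scaled CPM is named. Library totals ran from 7719180 to 21962191 miRNA reads. The family took 1.99%, 2.02% and 1.99% of miRNA reads in WT replicates 1 to 3, and 1.92%, 2.01%, 2.40% and 2.31% in ALAS12-KO replicates 1 to 4. The WT libraries were close together, and 2 ALAS12-KO libraries stood above all of them and 1 below. The mean share was 2.00% ± 0.0132 (SD, n = 3) in WT. In ALAS12-KO it was 2.16% ± 0.227 (SD, n = 4). The guides made up 99.9% of the family's reads in every library.

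**Figure D1:**
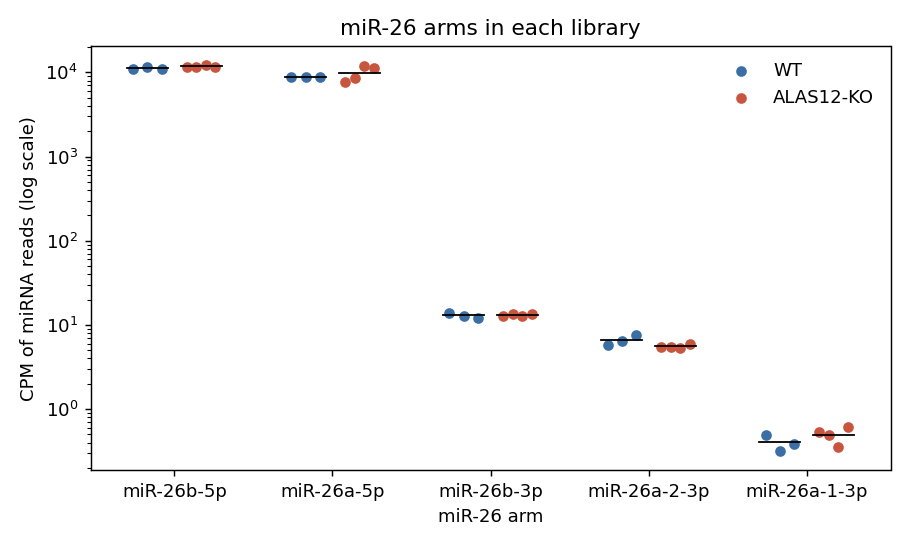
CPM of each miR-26 arm on a log axis, with 1 point per library (WT blue, ALAS12-KO red) and a bar at the group mean. Guides sit between 7618 and 12182 CPM and passengers between 0.319 and 13.8 CPM.

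The guide from Ctdsp1, miR-26b-5p, was the family's most abundant arm and ranked 13 among the 1966 miRNAs by mean CPM, between miR-29c-3p and miR-126a-5p. It stood at 11094, 11447 and 10956 CPM in WT replicates 1 to 3 and at 11598, 11648, 12182 and 11747 CPM in ALAS12-KO replicates 1 to 4. On this scale every ALAS12-KO library lay above every WT library, a pattern that 5.33% of the 450 tested miRNAs showed. The step was small, from 11166 ± 253 (SD, n = 3) to 11794 ± 266 (SD, n = 4) CPM.

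With TMM scaling, which sets each library by the bulk of its miRNAs, miR-26b-5p stood at 10229, 11274 and 9720 TMM-scaled CPM in WT and at 14383, 13252, 11008 and 11442 in ALAS12-KO. The groups then overlapped, since ALAS12-KO replicate 3 fell below WT replicate 2. The log2 fold change of ALAS12-KO over WT was 0.27 ± 0.13 (SE), with an edgeR adjusted p of 0.283.

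The guide shared by Ctdspl and Ctdsp2, miR-26a-5p, ranked 17, between miR-194-5p and miR-101a-3p. It stood at 8879, 8709 and 8943 CPM in WT, a coefficient of variation of 1.36%, the third smallest in WT among the 43 miRNAs with a mean of at least 1000 CPM. In ALAS12-KO it stood at 7618, 8476, 11772 and 11286 CPM, with a coefficient of variation of 20.9%, which ranked 35 of 43. ALAS12-KO replicates 1 and 2 thus lay below all WT libraries and replicates 3 and 4 above all of them. For miR-26b-5p the coefficients of variation were 2.27% in WT and 2.26% in ALAS12-KO, against medians of 4.45% and 6.21% over the 43. On the TMM scale the ALAS12-KO values were 7.38% for miR-26a-5p and 12.6% for miR-26b-5p, against a median of 16.0%. In WT they were 3.94% and 7.61%, against 7.08%. The order of the guides in ALAS12-KO thus depended on the scaling. The spread of the groups was described and not tested.

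On the TMM scale the picture turned around. miR-26a-5p stood at 8187, 8577 and 7934 TMM-scaled CPM in WT and at 9447, 9643, 10637 and 10993 in ALAS12-KO. Every ALAS12-KO library was then above every WT library, as for 10.9% of the tested miRNAs. The log2 fold change was 0.31 ± 0.11 (SE), with an edgeR adjusted p of 0.220. It ranked 37 of 450 by p-value, and its signed value lay above that of 73.1% of the tested miRNAs.

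edgeR called 0 of the 4 tested arms and 0% of all 450 tested miRNAs at an adjusted p of 0.05. Of the 450, 84 had an unadjusted p under 0.05, 46 of them higher and 38 lower in ALAS12-KO. Among these was 1 arm of the family, miR-26a-5p (unadjusted p = 0.0191), while miR-26b-5p had 0.0697. DESeq2 called 21 miRNAs, limma-voom 0 and edgeR on library totals 2, and no arm of the family was among them.

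The scaling also shifts the whole table: the median over the tested miRNAs was 0.06 with TMM and −0.12 with library totals. Relative to this median, miR-26a-5p stood 0.25 higher with TMM and 0.27 higher with library totals, and miR-26b-5p 0.21 and 0.20 higher. The TMM factors were 0.806 and 0.879 in ALAS12-KO replicates 1 and 2 and ran from 1.02 to 1.13 in the other 5 libraries. TMM scaling therefore raised both guides most in those 2 libraries.

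**Figure D2:**
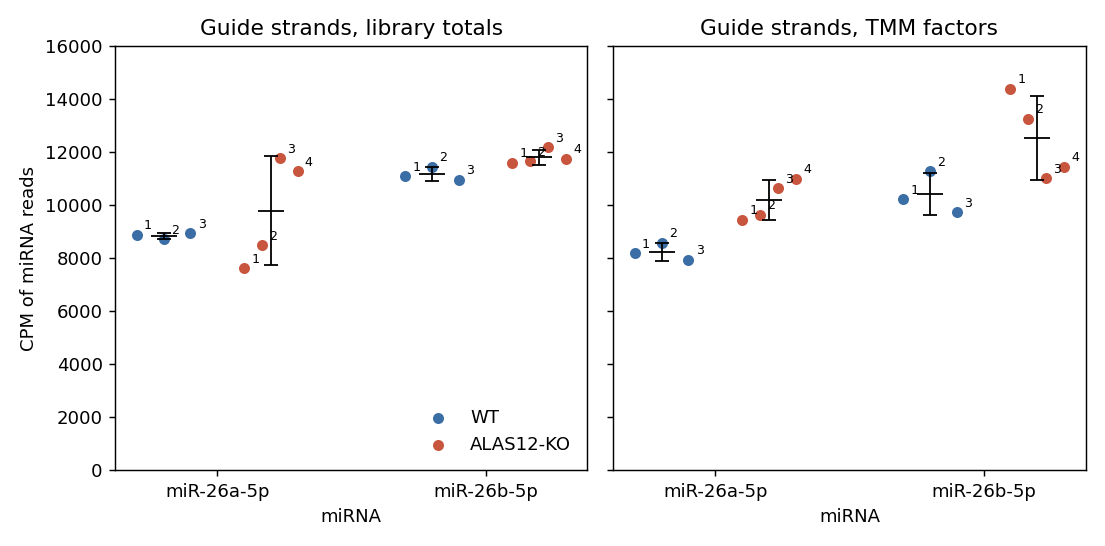
CPM of both guide strands scaled by library totals (left) and by TMM factors (right), with 1 numbered point per replicate and the group mean ± SD. The groups are apart for miR-26b-5p on the left and for miR-26a-5p on the right, and overlap in the other 2 cases.

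The ratio of the guides within a library needs no scaling. It asks whether the Ctdsp1 guide and the guide of the other 2 loci keep step. miR-26b-5p had 1.25, 1.31 and 1.23 reads per miR-26a-5p read in WT replicates 1 to 3, and 1.52, 1.37, 1.03 and 1.04 in ALAS12-KO replicates 1 to 4. All 4 ALAS12-KO libraries lay outside the WT range, 2 above and 2 below it. The WT libraries had a mean log2 ratio of 0.34 ± 0.052 (SD, n = 3). The ALAS12-KO libraries had 0.29 ± 0.28 (SD, n = 4). The means differed by −0.04, with p = 0.829 in a two-sided exact permutation test (also 0.829 once adjusted by Benjamini-Hochberg over the 2 locus ratios; the smallest p that 35 splits allow is 0.0286). The sign of this small difference changed without ALAS12-KO replicate 3 (0.04) or replicate 4 (0.04).

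The share of 9 hepatocyte marker miRNAs, most of it miR-122-5p, moved with this ratio across the libraries. It was 69.4% and 67.4% of miRNA reads in ALAS12-KO replicates 1 and 2, 66.2%, 64.3% and 63.4% in WT replicates 2, 1 and 3, and 63.2% and 60.7% in ALAS12-KO replicates 4 and 3. That is the order of the guide ratio, from the highest to the lowest, in all 7 libraries. This order was noticed in the values.

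Markers of other liver cells ran in the opposite order only in part. The 2 endothelial miRNAs took 1.10% and 2.55% of reads in ALAS12-KO replicates 1 and 2, the lowest of the 7 libraries, and 2.96% and 3.65% in replicates 4 and 3, while WT libraries held 3.56% to 5.25%. The 7 leukocyte miRNAs took 0.300% and 0.653% in ALAS12-KO replicates 1 and 2, 0.849% and 0.996% in replicates 4 and 3, and 0.817% to 1.10% in WT. The 7 mesenchymal miRNAs took 0.170% to 0.624% in ALAS12-KO and 0.453% to 0.761% in WT, the 5 bile duct miRNAs 0.00544% to 0.0105% and 0.0139% to 0.0243%, and the 4 red cell miRNAs 9.11e-04% to 0.00203% and 0.00205% to 0.00272%. The bile duct miRNAs were not alike. Log2 fold changes were −1.31, −1.30 and −1.27 for miR-200a-3p, miR-200b-3p and miR-429-3p, against −0.10 for miR-141-3p and −0.07 for miR-200c-3p. No marker with a row in the files was at 0 in any library. The part of the cell makeup in the guide ratio was not tested, and in bulk samples fewer cells of a type and less RNA per cell cannot be told apart.

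**Figure D3:**
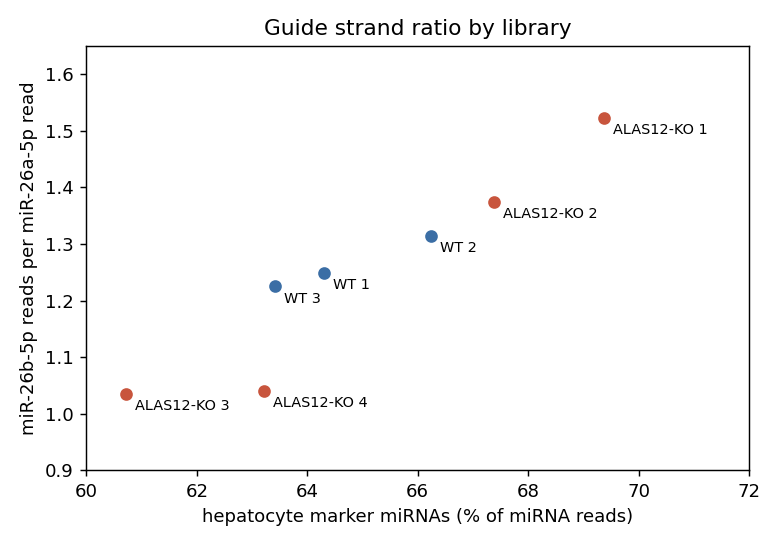
Reads of miR-26b-5p per read of miR-26a-5p against the share of hepatocyte marker miRNAs, with 1 labelled point per library (WT blue, ALAS12-KO red). WT libraries lie between 1.23 and 1.31, with 2 ALAS12-KO libraries above and 2 below; neither axis starts at 0.

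The passengers were rare, and none passed the test. miR-26b-3p, from Ctdsp1, had 221, 284 and 94 reads in WT (13.8, 12.9 and 12.2 CPM) and 169, 135, 218 and 222 reads in ALAS12-KO (12.8, 13.4, 12.8 and 13.6 CPM). The groups overlapped. Its log2 fold change was 0.20 ± 0.19 (SE), with an edgeR adjusted p of 0.564, and it was 0.02 on library totals.

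miR-26a-2-3p, from Ctdsp2, had 93, 141 and 58 reads in WT (5.80, 6.42 and 7.51 CPM) and 72, 55, 91 and 98 reads in ALAS12-KO (5.47, 5.45, 5.32 and 5.98 CPM). On this scale the groups overlapped through WT replicate 1 and ALAS12-KO replicate 4 alone. On the TMM scale WT ran from 5.35 to 6.67. The highest and lowest of all libraries were then ALAS12-KO replicate 1 (6.78) and replicate 3 (4.81). The log2 fold change of miR-26a-2-3p was −0.05 ± 0.22 (SE, edgeR adjusted p = 0.921), the only negative value among the 4 tested arms. It was −0.24 on library totals.

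miR-26a-1-3p, from Ctdspl, had 8, 7 and 3 reads in WT and 7, 5, 6 and 10 in ALAS12-KO, or 0.319 to 0.499 and 0.351 to 0.610 CPM. It ranked 469 and did not pass the filter on low counts. Fitted without that filter, its log2 fold change was 0.42 ± 0.59 (SE; edgeR adjusted p = 0.799). At this depth the estimate is too loose to show a difference of its own size.

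Passengers of the 2 miR-26a loci were unequal in every library. Of the passenger reads of both loci, miR-26a-1-3p made up 46 of 654 over all libraries, or 7.03% (95% exact binomial interval 5.20% to 9.27%, counting error only). It was 18 of 310 reads in WT (5.81%, interval 3.48% to 9.02%) and 28 of 344 in ALAS12-KO (8.14%, 5.48% to 11.5%). miR-26a-2-3p had 11.6, 20.1 and 19.3 reads per read of miR-26a-1-3p in WT, and 10.3, 11.0, 15.2 and 9.80 in ALAS12-KO. The groups overlapped, since ALAS12-KO replicate 3 lay above WT replicate 1. The WT mean of the log2 ratio was 3.92 ± 0.41 (SD, n = 3). The ALAS12-KO mean was 3.41 ± 0.27 (SD, n = 4), a difference of −0.51 with p = 0.114 in the same exact permutation test (0.229 adjusted over the 2 locus ratios). Passenger reads do not give each locus's part of miR-26a-5p, since the loci may keep different shares of their passengers.

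The passengers of all 3 hairpins were far below the guide counts set beside them. miR-26b-3p stood at 0.124%, 0.113% and 0.111% of miR-26b-5p in WT and at 0.111%, 0.115%, 0.105% and 0.115% in ALAS12-KO, so the ranges overlapped, with WT replicate 1 above every ALAS12-KO library and ALAS12-KO replicates 1 and 3 below every WT library. miR-26a-2-3p stood at 0.0654%, 0.0737% and 0.0840% of miR-26a-5p in WT and at 0.0717%, 0.0643%, 0.0452% and 0.0530% in ALAS12-KO. The lowest 2 belonged to ALAS12-KO replicates 3 and 4, the libraries highest in miR-26a-5p. miR-26a-1-3p stood at 0.00366% to 0.00562% in WT and 0.00298% to 0.00698% in ALAS12-KO.

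Among the 153 hairpins with both arms past the filter, where the minor arm had a median of 4.01% of the major arm, Mir26a-2 was the seventh most uneven and Mir26b ranked 14. Since miR-26a-5p sums 2 loci, the ratios of Mir26a-1 and Mir26a-2 are lower than each locus's own, which these counts do not give. limma, fitted to the log2 ratio of minor over major arm, called 0 of the 2 tested miR-26 hairpins and 0% of all 153, with 10 at an unadjusted p under 0.05. The difference was −0.36 ± 0.20 (SE) for Mir26a-2 (limma adjusted p = 0.640) and −0.06 ± 0.12 for Mir26b (0.914).

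**Figure D4:**
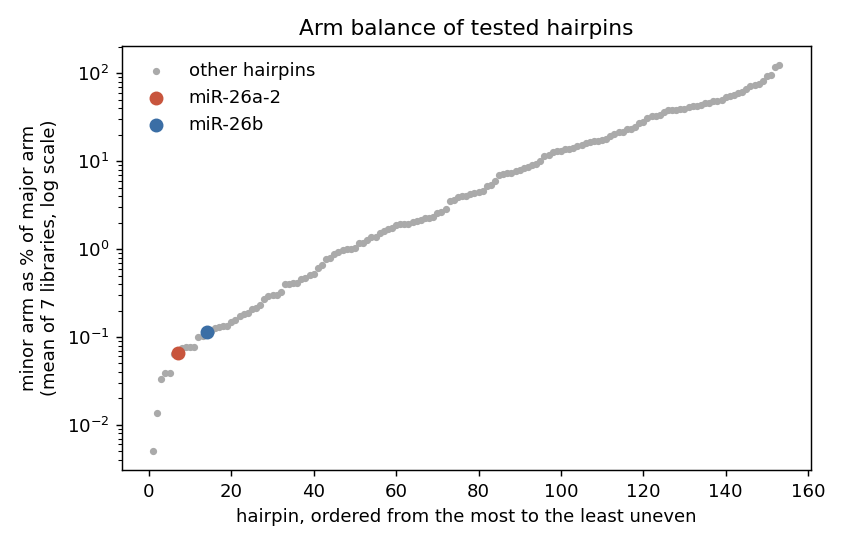
Minor arm as a percentage of the major arm (log axis, mean of 7 libraries) for 153 hairpins in order of rank. Mir26a-2 (rank 7) and Mir26b (rank 14) lie at the uneven end, with Mir26a-1 not drawn because its passenger did not pass the filter.

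On the TMM scale the 2 guides were most like different miRNAs across the libraries. Over 7 libraries the log2 TMM-scaled levels of the guides had a Pearson r of 0.43. Among 105 other miRNAs of at least 100 CPM, those most like miR-26b-5p were let-7f-5p (r = 0.99), let-7g-5p (0.98), miR-101b-3p (0.98), miR-30c-5p (0.98) and miR-192-5p (0.97). Those most like miR-26a-5p were miR-378a-3p (r = 0.96), miR-1843a-5p (0.94), miR-22-3p (0.93), miR-23b-3p (0.93) and miR-1839-5p (0.93). All values in 1 library share its scaling factor. On library totals the 5 values for miR-26b-5p ran from 0.37 to 0.72 and those for miR-26a-5p from 0.84 to 0.96. The r between the guides was taken on the TMM scale only, so the contrast may depend on the scaling. These are descriptions, not tests.

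Other intronic miRNAs with protein-coding hosts gave the setting for the Ctdsp introns. Of the 29 listed, 25 lay on the strand of a coding gene that spans them in GENCODE M21, and the other 4 had no hairpin matched by name. All 29 were tested and edgeR called 0 of them. Their median log2 fold change was 0.20, with 24 positive and 5 negative, beside a median of 0.06 over all 450 with 252 positive. Some of the 29 share a hairpin or host, so they are not independent. Both arms of Mir30e and Mir361 were listed, as were both arms of miR-28a and of miR-151. In addition, miR-25-3p, miR-93-5p and miR-106b-5p all lie in Mcm7. On the TMM scale 6 of the 29 lay higher and 2 lower in ALAS12-KO with no overlap between the groups, beside 10.9% and 9.33% of all tested miRNAs. miR-101b-3p, from Rcl1, had 0.35 ± 0.18 (SE), miR-30e-5p, from Nfyc, 0.55 ± 0.15, miR-103-3p, from Pank2 and Pank3, 0.00 ± 0.12, and miR-152-3p, from Copz2, 0.20 ± 0.13. The guides of the family, at 0.31 and 0.27, lay within this range. Host transcripts were not measured in these libraries.

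miRNAs known, like miR-26a, as restraints on growth had values on both sides of 0. Of 26 listed, all tested, edgeR called 0, with 18 positive and 8 negative and a median log2 fold change of 0.13. The most abundant were miR-122-5p at 0.20 ± 0.16 (SE), let-7f-5p at 0.23 ± 0.12, miR-16-5p at −0.12 ± 0.11 and miR-148a-3p at 0.29 ± 0.16. The groups overlapped for these 4 on the TMM scale. On that scale the groups were apart for 6 of the 26, 3 higher and 3 lower in ALAS12-KO, beside the same 10.9% and 9.33% of all tested miRNAs. These 6 are named after their values were seen. The higher ones were miR-34a-5p (1.10 ± 0.19), miR-22-3p (0.53 ± 0.14) and miR-101a-3p (0.39 ± 0.14), and the lower ones miR-195a-5p (−0.57 ± 0.25), miR-125b-5p (−0.23 ± 0.14) and let-7i-5p (−0.16 ± 0.11). This too depended on the scaling. On library totals the groups overlapped for miR-22-3p and miR-195a-5p. They were then apart, lower in ALAS12-KO, for miR-16-5p and for miR-29b-3p, which is also named after its values were seen.

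**Figure D5:**
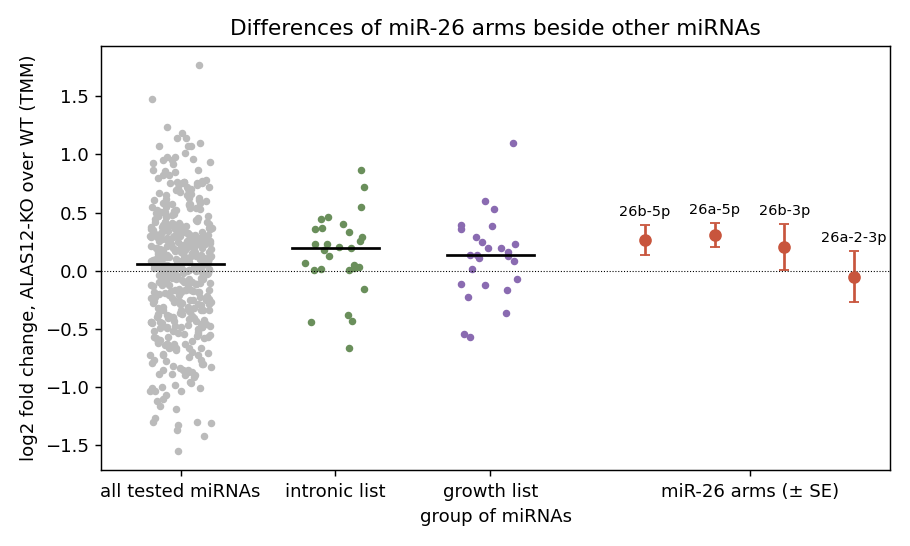
TMM-scaled log2 fold change of ALAS12-KO over WT for all 450 tested miRNAs, both lists (a point per miRNA, bar at the median) and the 4 tested miR-26 arms (edgeR estimate ± SE). Both guides and miR-26b-3p lie above 0, from 0.20 to 0.31, and miR-26a-2-3p at −0.05, all inside the spread of the tested miRNAs.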

How the data were processed

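Each deposited file holds the raw read count of every mature miRNA in 1 library, as whole numbers that the values show to be unscaled. Cutadapt, limma, mm10 and hg38 are named, with no role, per the submitters' processing notes; which aligner, counter and annotation the authors used is not given in the sources used here. Spike-in RNAs that were added to the samples are not analysed here, so levels are relative to all miRNAs. Neither totals nor tests include the 5 summary entries, among them reads aligned elsewhere (50.9% to 73.7% of reads) and unaligned reads (4.54% to 8.00%). No pair of libraries in a group agreed within sampling noise (chi-square over its degrees of freedom, 112 to 1288).

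ALAS12-KO was compared with WT by edgeR 4.0.16 in R 4.3.3 (TMM, filterByExpr with a minimum count of 10, robust quasi-likelihood test, Benjamini-Hochberg over 450 miRNAs, threshold 0.05). Arm ratios were fitted with limma 3.58.1 after adding 0.5 to each count; a guide shared by several loci enters a ratio for each. Locus ratios were compared by exact permutation. DESeq2 1.42.0, limma-voom, other scalings, filters and left-out libraries were alternatives. The edgeR and limma steps were tried on simulated data with larger changes than those of the miR-26 arms. Differences of the size seen for these arms were not simulated. Sequences and positions came from RefSeq and GENCODE M21, read with Python 3.11.15. Named besides the arms were the 5 miRNAs most like each guide and the neighbours of each guide in rank. The 4 most abundant of each list were named too and, after their values were seen, the growth-list members whose groups were apart. The members and lists were chosen with earlier results of these data known.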

Additional observations from a re-analysis of the deposited data

How the results depend on the processing

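No tested arm of the family passed the threshold, and none changed sign, under the alternatives that gave it a value. Log2 fold changes ran from 0.15 to 0.34 for miR-26a-5p (adjusted p 0.117 to 0.620) and from 0.08 to 0.33 for miR-26b-5p (0.241 to 0.585) over 15 alternatives each. They ran from 0.02 to 0.24 for miR-26b-3p over 15 and from −0.24 to −0.01 for miR-26a-2-3p over the 14 that kept it. The count of called miRNAs, 0 with edgeR, was 2 with library totals, 13 with no filter and 21 with the DESeq2 Wald test, and 0 to 1 when each library was left out; the cause was not tested. The difference of the guide ratio changed sign to 0.035 with a replicate block, and ran from −0.15 to 0.038 when each library was left out (exact permutation p 0.4 to 1 over all alternatives). In that block ALAS12-KO replicate 4 drops out. Deviations of same-numbered libraries from their group means had correlations of −0.03, −0.47 and 0.01, beside −0.36 to 0.53 for differently numbered pairs. These values do not show whether same-numbered libraries share more than a number. With the replicate block edgeR called 0 miRNAs and miR-26a-5p had 0.27. The difference of the miR-26a passengers stayed negative, from −0.74 to −0.35. Taking miR-122-5p out of the total raised the family's share to 4.76% in WT and 5.10% in ALAS12-KO, and adding reads outside any miRNA lowered it to 0.684% and 0.771%, by construction. Depth limits miR-26a-1-3p most, at 3 to 10 reads per library.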
